A study of Arabidopsis thaliana with 18 samples.

Results

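The transcriptional response of Col-0 seedlings to exogenously applied glucose was described across all expressed genes. Col-0 is the wild-type Arabidopsis thaliana accession used as the reference background in this study. The comparison used the 3 libraries of 5-day-old Col-0 whole seedlings grown with 15 mM glucose and the 3 libraries of Col-0 whole seedlings of the same age grown without sugar (mock), which are 6 of the 18 libraries of the series. The other 12 libraries were 3 of Col-0 with 15 mM sucrose and 3 each of atm1-1, a T-DNA insertion mutant of the class VIII myosin gene ATM1, with glucose, with sucrose and with mock. Seeds were placed directly on half-strength Murashige and Skoog agar with or without the sugar, at 22 °C in 12 h of light and 12 h of dark, so the glucose libraries came from seedlings that had been on glucose since plating. No library with an osmotic control sugar was analysed here.

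Glucose is both a carbon source and a signal in plants. Hexokinase 1 senses glucose, the TOR kinase complex promotes growth when sugar is abundant, and the SnRK1 kinase acts when sugar is scarce, repressing growth and inducing genes for the breakdown of protein, amino acids and lipid. High sugar is known to repress photosynthetic genes and to induce genes of starch and anthocyanin synthesis. Young Arabidopsis seedlings also live on the oil and the storage proteins of the seed, which are broken down after germination through fatty acid oxidation and the glyoxylate cycle.

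The labels call the 3 libraries of a group biological replicates. The libraries were made with a QuantSeq 3′ kit, which reads the 3′ end of polyadenylated transcripts, and each value is the number of reads counted on a gene. The glucose libraries held 11381965, 9450790 and 14120130 counts, and the mock libraries 14047220, 12864484 and 12414000. Expression is given as CPM, the counts scaled to a common library total with TMM factors, library by library in the order of the replicate numbers or as mean ± SD of the 3 libraries, and fold changes are log2 values of glucose over mock with their standard error (SE). The q-value is the Benjamini-Hochberg adjusted p from edgeR's quasi-likelihood test over the 19679 genes that passed a filter on low counts, and genes with q at most 0.1, the threshold of the study, are called. Counts of calls come from fits of all 18 libraries unless another fit is named. Because RNA came from whole seedlings, fewer cells of a type and less RNA per cell cannot be told apart. Of the genes described below, OLEO1, NRT1.8, RAB18, P5CS1, ADH1, AT2G14247, bHLH38, IGMT5, AIR1 and AIR3 overlap an annotated gene on the other strand, and whether counting used strand is not given in the sources used here. ATM1 (AT3G19960), the gene mutated in atm1-1, was not called between the Col-0 groups, with 27.9, 36.7 and 30.4 CPM in glucose libraries and 43.9, 34.8 and 35.9 CPM in mock libraries (log2 fold change −0.27, SE 0.19, edgeR q = 0.95).

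Glucose changed a small set of genes, and most of them rose. Of the 19679 genes tested, 109 were called, which is 0.554% of them. These were 87 genes that rose (0.442%) and 22 genes that fell (0.112%). The counts of called list members below are to be read beside these shares. Of the risers, 59 at least doubled and 28 rose by less than 2-fold, the smallest by 0.60 on the log2 scale. Of the genes that fell, 18 at least halved. The 3 glucose libraries lay above the 3 mock libraries for 86 of the 87 risers and below them for 21 of the 22 others, against 6.78% of all genes tested with all glucose libraries above and 6.88% with all below. Such separation was also required of the leading rises and falls named below. Where it is given for a called gene, it describes the values and adds no support to the call. The median log2 fold change over all genes tested was −0.00303, and 1194 genes had an unadjusted p under 0.05. At the threshold, FRO5 and AT1G78850 were the last genes inside (q = 0.0996 for both) and AT5G05600 (q = 0.1004) and AT4G12500 (q = 0.103) the first outside. Many calls did not hold when a library was left out: in 6 fits that each left out 1 of the 6 libraries, 36 of the 109 genes (29 risers and 7 that fell) were called every time. For other genes described below, q without the libraries that ended the call is given beside the result.

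**Figure D1:**
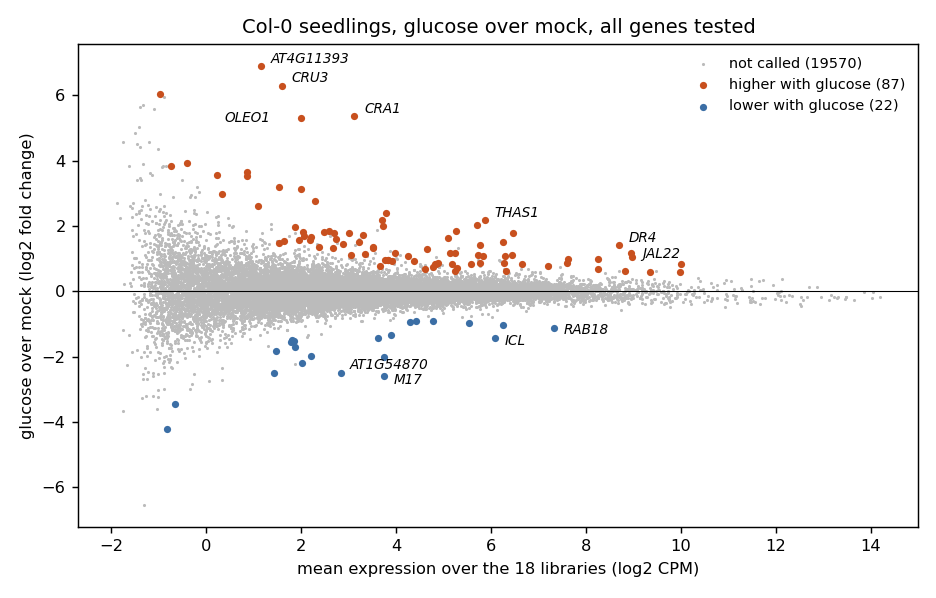
Log2 fold change of glucose over mock in Col-0 seedlings (y axis) against mean expression over the 18 libraries in log2 CPM (x axis), with 1 point for each of the 19679 genes tested. The 87 called genes that rose are orange and the 22 that fell are blue. Fold change alone does not set them apart from the grey genes that were not called, whose lowest value is −6.54. AT4G11393, CRU3, CRA1 and OLEO1 lie near the top of the plot at low mean expression (log2 CPM of 1.15, 1.61, 3.13 and 1.99).

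Among called genes with a mean log2 CPM of 1 or more over the 18 libraries and no overlap between groups, a defensin-like gene and 3 seed storage and oil body genes had the largest rises. Their mean levels rest on the libraries with sugar, because mock levels were low, so they passed that limit through the groups in which they are high. AT4G11393, annotated as a defensin-like protein, had 9.43, 6.53 and 6.15 CPM in glucose libraries and 0, 0 and 0.168 CPM in mock libraries. This came from 257 counts against 2, a ratio of 139 with a 95% interval of 38.1 to 1150 that covers counting error only (edgeR q = 1.2e-06). The gene was nearly silent without sugar and present in every glucose library.

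CRA1 and CRU3 encode cruciferins, the globulins that store protein in the seed, and OLEO1 encodes the main oleosin that coats seed oil bodies. CRA1 had 46.9, 32.9 and 9.5 CPM in glucose libraries and 0.595, 1.26 and 0.252 CPM in mock libraries (log2 fold change 5.37, SE 0.60, edgeR q = 1.4e-05). OLEO1 had 31.9, 10.1 and 2.67 CPM with glucose and 0.149, 0.706 and 0.252 CPM with mock (5.30, SE 0.71, q = 0.00016). CRU3 had 12.3, 6.53 and 2.19 CPM with glucose and 0.0744, 0.0785 and 0.0839 CPM with mock, which is 231 counts against 3 and a ratio of 83.3 (95% counting interval 28.2 to 407, q = 0.00026). For all 3 genes the groups did not overlap, glucose replicate 1 was the highest and glucose replicate 3 the lowest, and the glucose libraries differed from each other several-fold.

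Of the 18 genes listed for seed storage and oil bodies, 10 passed the filter on low counts. Of these 10, 3 rose, 1 fell and the median log2 fold change was 1.94, against −0.00303 over all genes. Those not called included OLEO2, with means of 20.5 ± 16.5 CPM with glucose and 5.57 ± 2.00 CPM with mock (1.87, q = 0.17), and the late embryogenesis genes GEA6 (1.61, q = 0.14) and EM1 (2.01, q = 0.30). Among the 8 listed genes that did not pass the filter, the seed albumin gene SESA5 had 19, 2 and 0 counts with glucose and 3, 0 and 0 counts with mock. Without glucose replicate 1 the median of the list was 1.16. The filter ran over all 6 groups, so members low in mock libraries, such as CRU3, could pass it through the libraries with sugar. These medians describe the members that passed and are no evidence of a rise of the whole class.

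The list member called lower was M17 (AT2G41260), annotated as a glycine-rich late embryogenesis abundant protein. It was 1 of 2 tested members with a log2 fold change below 0. It had 11.2, 15.9 and 4.24 CPM in glucose libraries and 72.2, 43.2 and 70.9 CPM in mock libraries (log2 fold change −2.60, SE 0.51, edgeR q = 0.0115). All glucose libraries lay below all mock libraries. Without glucose replicate 3, q was 0.103.

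RAB18, LEA, AtLEA4-1, AT4G25580 and P5CS1 also fell. They were grouped after their values had been seen, and LEA, AtLEA4-1 and AT4G25580 are in none of the lists, so the group does not stand for all such genes (EM1 and GEA6, above, had log2 fold changes above 0). Late embryogenesis abundant (LEA) proteins and dehydrins are hydrophilic proteins that accumulate in drying seeds and in tissues under water deficit or abscisic acid. RAB18 (AT5G66400), a dehydrin widely used as an abscisic acid response gene, had 169, 204 and 155 CPM with glucose and 329, 407 and 411 CPM with mock (−1.12, SE 0.16, edgeR q = 0.00026). The gene shown as LEA (AT2G21490), also a dehydrin, had 2.05, 2.68 and 2.67 CPM with glucose and 7.22, 7.53 and 11.7 CPM with mock (−1.83, SE 0.36, q = 0.014). AtLEA4-1, a group 1 LEA protein by its annotation, had 17.8, 7.06 and 7.25 CPM with glucose and 26.9, 22.4 and 37.4 CPM with mock (−1.43, SE 0.30, q = 0.021). None of these 3 genes overlapped between the groups. RAB18 stayed called whichever library was left out, whereas q was 0.170 without mock replicate 3 and 0.122 without glucose replicate 1 for LEA, and 0.199, 0.163 and 0.175 without mock replicate 3, glucose replicate 2 and glucose replicate 3 for AtLEA4-1.

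AT4G25580, annotated as a CAP160 protein, had 3.74, 3.53 and 4.99 CPM with glucose and 17.6, 12.1 and 19.6 CPM with mock (−2.00, SE 0.33, edgeR q = 0.0023) and was called in all 6 fits. P5CS1, which encodes the rate-limiting enzyme of proline synthesis, was the called gene that fell with overlap, at 29.4, 19.3 and 21.7 CPM with glucose and 28.6, 57.9 and 46.1 CPM with mock (−0.91, SE 0.21, q = 0.043). Its q was 0.387 and 0.202 without mock replicates 2 and 3, and 0.259 and 0.220 without glucose replicates 2 and 3. Of the 12 genes listed for the osmotic, cold and abscisic acid response, RAB18 and P5CS1 fell, none rose, 3 had log2 fold changes above 0 and the median was −0.249. COR47, the most abundant member, had means of 1249 ± 81.1 CPM with glucose and 1147 ± 93.1 CPM with mock (0.12, q = 0.98), and KIN2 means of 276 ± 53.3 CPM with glucose and 348 ± 29.0 CPM with mock (−0.33, q = 0.87).

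Of the genes of seed oil use, ICL alone was called, and it fell. ICL encodes isocitrate lyase, the glyoxylate cycle enzyme that lets seedlings turn stored oil into sugar. It had 86.4, 61.4 and 59.3 CPM in glucose libraries and 176, 171 and 217 CPM in mock libraries (log2 fold change −1.45, SE 0.25, edgeR q = 0.0040). The groups stood far apart, and ICL was called in all 6 fits. MLS, the malate synthase of the same cycle, had means of 14.2 ± 4.89 CPM with glucose and 14.8 ± 3.21 CPM with mock (−0.07). PCK1, which commits the carbon to gluconeogenesis, had means of 107 ± 6.03 CPM with glucose and 85.9 ± 3.65 CPM with mock (0.32, q = 0.64). Over the 19 genes of oil mobilization and gluconeogenesis tested, the median was 0.0357.

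**Figure D2:**
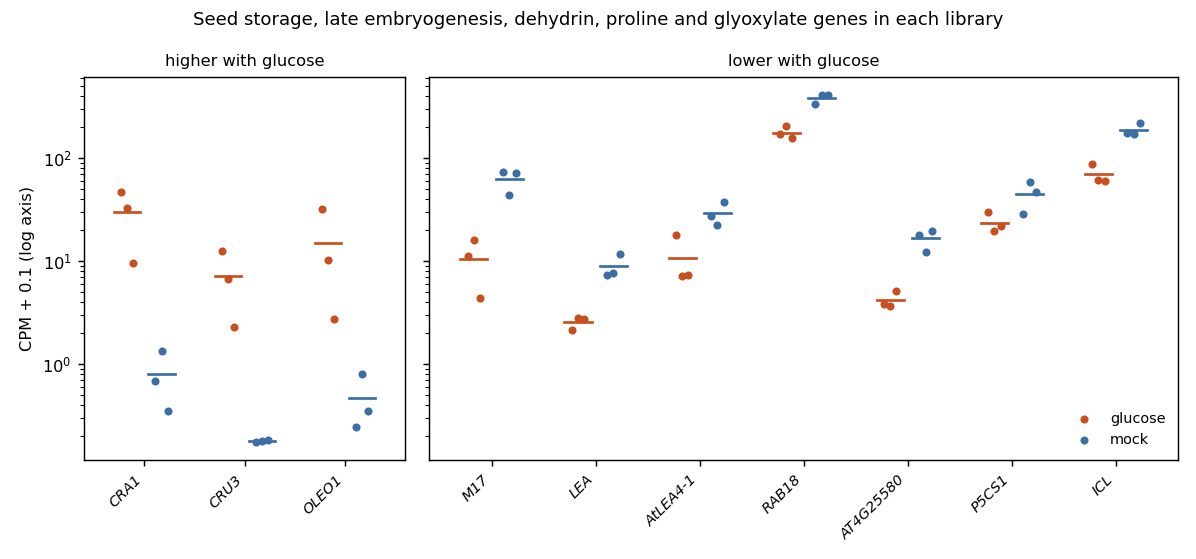
CPM + 0.1 on a log axis of called genes of seed storage (left, higher with glucose) and of late embryogenesis, dehydrins, proline synthesis and the glyoxylate cycle (right, lower with glucose) in the 3 glucose (orange) and 3 mock (blue) Col-0 libraries, with 1 point for each library and bars at the means. CRA1, CRU3 and OLEO1 are at or below 1.26 CPM in every mock library, RAB18 is at 155 to 204 CPM with glucose and at 329 CPM or more with mock, and P5CS1 is the gene whose groups overlap.

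A neighbouring pair also had large falls. AT1G54870, annotated as an NAD(P)-binding Rossmann-fold protein, had 3.38, 11.0 and 9.91 CPM with glucose and 43.8, 31.0 and 61.9 CPM with mock (−2.49, SE 0.34, edgeR q = 0.00017). AT1G54860, a GPI-anchored glycoprotein by its annotation, had 1.78, 5.78 and 2.53 CPM with glucose and 16.1, 8.47 and 32.1 CPM with mock (−2.52, SE 0.45, q = 0.0051, and 0.125 without mock replicate 3). Both are among the leading falls, which were chosen to have no overlap between the groups, and AT1G54870 was called in all 6 fits. Among less expressed genes, AT3G03670, a peroxidase family member, had 3 counts over the glucose libraries and 68 over the mock libraries, 20.9-fold more in mock (95% counting interval 6.87 to 104, edgeR q = 0.043). It was called only without glucose replicate 1, with q of 0.111 to 0.294 in the other 5 fits.

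The remaining leading falls were of genes with little annotation. AT5G33355, a defensin-like gene, had 4.00, 6.53 and 8.34 CPM with glucose and 23.4, 24.8 and 28.6 CPM with mock (−2.01, SE 0.35, edgeR q = 0.0040). AT3G59930, another defensin-like gene, had 29.9, 30.5 and 48.0 CPM with glucose and 69.9, 66.8 and 77.5 CPM with mock (−0.98, SE 0.22, q = 0.043, and 0.169, 0.218, 0.328 and 0.246 without mock replicates 1 and 3 and glucose replicates 1 and 2). Defensin-like genes come in families of similar sequence, and how the counting treated reads that fit several genes is not given in the sources used here, so the split of counts among similar members is uncertain. Falls of 2.2, 1.69 and 1.55 on the log2 scale were found for AT1G03106, AT1G07985 and AT1G65481, all annotated as uncharacterized proteins. The first 2 of these were called in all 6 fits, and AT1G65481 had q = 0.076, but 0.142, 0.324 and 0.202 without mock replicates 1, 2 and 3 and 0.357 and 0.441 without glucose replicates 2 and 3.

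Most listed genes of thalianol and marneral synthesis rose. Thalianol and marneral are triterpenes of Arabidopsis roots, and the genes for each pathway lie side by side in the genome. All 7 listed genes passed the filter, 5 rose and none fell, where 0.442% of all genes tested were called higher. The median log2 fold change was 1.44, against −0.00303 over all genes. This list, like the others, was chosen with earlier results of these data known, so the contrast with all genes is no independent evidence. The summed level of the 7 genes was 269.9 to 371 CPM in glucose libraries and 86.8 to 96.0 CPM in mock libraries.

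THAS1, the thalianol synthase that closes the triterpene ring, had 112, 110 and 128 CPM with glucose and 27.8, 26.3 and 23.8 CPM with mock (2.17, SE 0.23, edgeR q = 5.3e-06). CYP705A5, a cytochrome P450 of the same pathway, had 163, 113 and 167 CPM with glucose and 45.0, 36.5 and 46.2 CPM with mock (1.8, SE 0.19, q = 5.3e-06). AT5G47980, an acyltransferase gene at the edge of the cluster, had 30.5, 15.8 and 31.0 CPM with glucose and 3.80, 3.84 and 9.40 CPM with mock (2.2, SE 0.38, q = 0.0035). These 3 genes did not overlap between the groups and were called in all 6 fits. CYP708A2, which hydroxylates thalianol, had 17.9, 13.3 and 18.3 CPM with glucose and 6.03, 9.26 and 4.53 CPM with mock (1.32, SE 0.25, q = 0.0085, and 0.117 without mock replicate 3).

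Among the marneral genes, CYP705A12 rose, with 13.3, 7.49 and 10.9 CPM with glucose and 3.57, 3.92 and 4.2 CPM with mock (1.44, SE 0.32, edgeR q = 0.038). This call was lost in every fit that left out a library except glucose replicate 2, with q of 0.250, 0.151 and 0.165 without mock replicates 1, 2 and 3 and 0.284 and 0.117 without glucose replicates 1 and 3. CYP71A16 had means of 11.2 ± 2.63 CPM with glucose and 5.94 ± 0.326 CPM with mock (0.93, q = 0.21), with every glucose library above every mock library. MRN1, the marneral synthase itself, was at 1.96, 1.28 and 1.78 CPM with glucose and 0.372, 0.942 and 1.6 CPM with mock, which overlapped (0.81, q = 0.94).

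**Figure D3:**
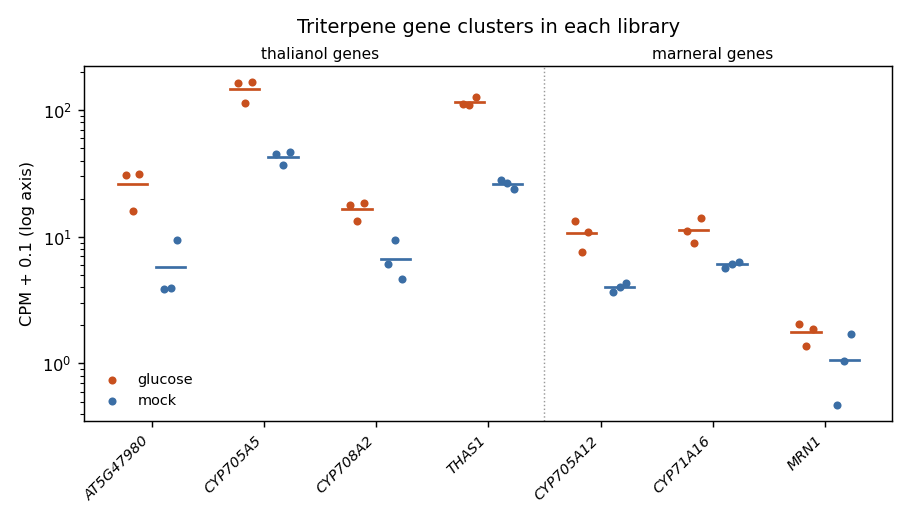
CPM + 0.1 on a log axis of the 4 thalianol and 3 marneral genes in the 3 glucose (orange) and 3 mock (blue) Col-0 libraries, with 1 point for each library and bars at the means. The glucose points lie above the mock points for 6 of the 7 genes, the exception being MRN1, against 6.78% of all genes tested. THAS1 is at 110 to 128 CPM with glucose and at 23.8 to 27.8 CPM with mock.

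Several transporter genes rose. They, and the iron and cell wall genes after them, were grouped after their values had been seen. NRT1.8, a nitrate transporter that takes nitrate back out of the xylem, had 6.32, 2.89 and 3.96 CPM with glucose and 0.670, 0.235 and 0.504 CPM with mock (3.2, SE 0.43, edgeR q = 0.00016). ALMT1, the malate channel of roots that releases malate under aluminium stress, had 6.05, 1.82 and 4.24 CPM with glucose and 0.0744, 0.0785 and 0.923 CPM with mock (3.52, SE 0.62, q = 0.0042). UMAMIT17, of the family of amino acid exporters, had 8.72, 9.85 and 13.6 CPM with glucose and 2.68, 3.22 and 3.27 CPM with mock (1.81, SE 0.33, q = 0.0064). All 3 were separate between the groups and called in all 6 fits. Its relative SIAR1, an amino acid transporter, rose by 0.84 (q = 0.034), and the boric acid channel NIP5;1 by 0.72 (q = 0.045). SIAR1 was called only without glucose replicate 2 and NIP5;1 only without mock replicate 2, with q of 0.107 to 0.241 and of 0.106 to 0.377 in the other 5 fits.

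The listed genes of nitrate uptake and assimilation, which do not include NRT1.8, gave 0 calls among 19 tested, with a median of 0.186. The nitrate reductase gene NIA1, known to be induced by sugar, had 339, 442 and 314 CPM with glucose and 354, 289 and 290 CPM with mock (0.23, SE 0.16, edgeR q = 0.95). NRT2:1, a high-affinity nitrate transporter, was at 0.890, 0.321 and 0 CPM with glucose and 0.372, 0.549 and 1.09 CPM with mock (−0.76, q = 0.99). For both genes the groups overlapped.

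Among iron-related genes, 4 rose. FRO5, set beside them only for its annotation as a ferric reduction oxidase, fell, and whether it serves iron uptake was not tested. BHLH100 and bHLH38 are transcription factors of the group that rises under iron deficiency and switches on iron uptake. BHLH100 had 3.83, 3.75 and 3.21 CPM with glucose and 0.521, 0.157 and 1.09 CPM with mock (2.60, SE 0.57, edgeR q = 0.034, and 0.232, 0.226 and 0.115 without mock replicates 1 and 2 and glucose replicate 1). bHLH38 had 10.3, 5.78 and 4.79 CPM with glucose and 1.64, 3.61 and 2.94 CPM with mock (1.35, SE 0.34, q = 0.092). It was called in 1 of the 6 fits, without glucose replicate 3, and q was 0.102 to 0.710 in the others. NAS2, which makes the metal chelator nicotianamine, had 8.18, 4.39 and 13.6 CPM with glucose and 3.27, 3.69 and 1.93 CPM with mock (1.57, SE 0.35, q = 0.036, and 0.156, 0.280 and 0.441 without mock replicates 1 and 3 and glucose replicate 3).

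ORG1, which earlier work links to iron deficiency, had 288, 226 and 155 CPM with glucose and 94.0, 140 and 131 CPM with mock (0.88, SE 0.19, edgeR q = 0.036). FRO5 had 3.91, 1.61 and 2.19 CPM with glucose and 4.47, 7.77 and 10.2 CPM with mock (−1.53, SE 0.39, q = 0.0996). None of the 5 genes overlapped between the groups, but each lost its call without at least 3 of the libraries. For ORG1, q was 0.384 and 0.122 without mock replicates 1 and 3 and 0.405 and 0.114 without glucose replicates 1 and 2. For FRO5, q was 0.276 and 0.544 without mock replicates 2 and 3 and 0.430 and 0.422 without glucose replicates 2 and 3.

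Among the called genes were 4 of the cell wall, which were grouped after their values had been seen. EXT4, an extensin that forms part of the protein network of the wall, had 261, 273 and 248 CPM with glucose and 133, 123 and 138 CPM with mock (0.99, SE 0.14, edgeR q = 0.00026). AGP1, an arabinogalactan protein, had 20.28, 30.6 and 19.9 CPM with glucose and 9.82, 11.9 and 11.8 CPM with mock (1.07, SE 0.20, q = 0.0064). Both were called in all 6 fits. XTH17 and XTH18, which cut and rejoin xyloglucan chains, rose by 1.78 (SE 0.33, q = 0.0082) and 1.49 (SE 0.32, q = 0.027). XTH17 had q = 0.105 without mock replicate 3, and XTH18 q of 0.241, 0.121 and 0.197 without mock replicates 1 and 3 and glucose replicate 2.

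**Figure D4:**
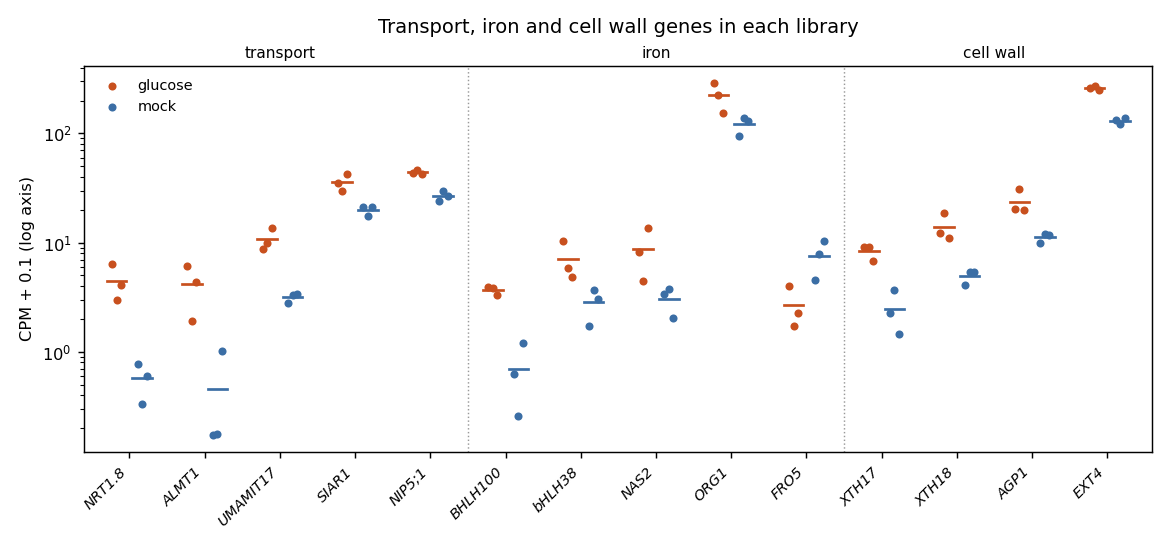
CPM + 0.1 on a log axis of 14 called genes of transport, iron and the cell wall in the 3 glucose (orange) and 3 mock (blue) Col-0 libraries, with 1 point for each library and bars at the means. Glucose points lie above mock points for every gene shown except FRO5, whose 3 glucose points at 1.61 to 3.91 CPM lie below its mock points.

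The most abundant called genes belonged to lectin, latex protein and protease families. JAL22, a jacalin-related lectin, had 815, 761 and 709 CPM with glucose and 321, 376 and 319 CPM with mock (1.17, SE 0.17, edgeR q = 0.00056). MLP328, a major latex protein-like gene, had 752, 748 and 673 CPM with glucose and 324, 365 and 356 CPM with mock (1.06, SE 0.16, q = 0.00056). Its relative MLP34 had 433, 452 and 433 CPM with glucose and 230, 222 and 214 CPM with mock (0.98, SE 0.17, q = 0.0034). The replicates of these genes lay close together, the groups were far apart and the calls held in all 6 fits. NSP1, which steers glucosinolate breakdown toward nitriles, had 1318, 1517 and 1296 CPM with glucose and 884, 610 and 800.2 CPM with mock (0.85, SE 0.20, q = 0.051). AT4G11320, a papain-type cysteine protease, had 1287, 1341 and 1036 CPM with glucose and 782, 786 and 841 CPM with mock (0.60, SE 0.14, q = 0.052). AT1G78850, a mannose-binding lectin, rose by 0.60 (SE 0.15, q = 0.0996).

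Those last 3 calls were less stable. For NSP1, q was 0.327 and 0.192 without mock replicates 2 and 3 and 0.142 and 0.218 without glucose replicates 1 and 2. AT4G11320 and AT1G78850 were called only without glucose replicate 3, with q of 0.182 to 0.322 and of 0.130 to 0.674 in the other fits. The jacalin lectins, the MLP genes and the cysteine proteases each have close relatives elsewhere in the genome, so their counts could be shared with those relatives.

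Genes of detoxification, defence proteins and lipid metabolism were also among those called in all 6 fits. DR4, a gene named for its repression by drought and annotated among protease inhibitors, had 677, 619 and 655 CPM with glucose and 261, 232 and 240 CPM with mock (1.41, SE 0.18, edgeR q = 8.0e-05). XPL1, the phosphoethanolamine methyltransferase that makes the precursor of phosphatidylcholine, had 74.6, 110 and 94.1 CPM with glucose and 25.5, 35.7 and 37.6 CPM with mock (1.5, SE 0.24, q = 0.0012). GSTU25, a tau class glutathione transferase, had 86.3, 64.7 and 96.5 CPM with glucose and 24.6, 35.1 and 32.6 CPM with mock (1.43, SE 0.18, q = 9.0e-05). No library of one group reached the range of the other for these 3 genes. AT2G43590, a chitinase family gene, had 131, 52.4 and 54.1 CPM with glucose and 20.6, 19.4 and 18.2 CPM with mock (2.03, SE 0.25, q = 8.0e-05). AT3G16670, of the pollen Ole e 1 and extensin family, had 4.71, 10.6 and 9.84 CPM with glucose and 0.819, 0.785 and 1.26 CPM with mock (3.13, SE 0.42, q = 0.00015).

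Further leading rises were spread over several families. The lipid transfer protein gene AT5G55410 rose by 2.77 (SE 0.48, edgeR q = 0.0040) and the glycine-rich protein gene AT5G35660 by 2.39 (SE 0.42, q = 0.0040), and both were called in all 6 fits. AT5G55410 had 19.6, 9.42 and 3.28 CPM with glucose and 1.12, 1.57 and 2.01 CPM with mock. AT2G14247, an uncharacterized gene, rose by 1.86 (q = 0.038, and 0.347, 0.294 and 0.119 without mock replicate 1 and glucose replicates 1 and 2). AT4G36700, a cupin family gene with the same annotation as CRA1, rose by 1.85 (q = 0.036, and 0.335, 0.248, 0.328 and 0.119 without mock replicates 1 and 2 and glucose replicates 1 and 2). It had 12.7, 9.63 and 4.38 CPM with glucose and 1.64, 1.65 and 4.11 CPM with mock. For AT5G55410, AT2G14247 and AT4G36700, as for CRA1, CRU3 and OLEO1, glucose replicate 1 was the highest and glucose replicate 3 the lowest. AT5G35660 was highest in glucose replicate 2. ADH1, the alcohol dehydrogenase of fermentation, had 12.3, 4.92 and 5.47 CPM with glucose and 2.08, 2.04 and 1.68 CPM with mock (1.96, SE 0.41, q = 0.024). HB1, a phytoglobin that like ADH1 is known to be induced by low oxygen, had 8.72, 15.8 and 11.0 CPM with glucose and 4.69, 3.84 and 3.19 CPM with mock (1.59, SE 0.33, q = 0.021). ADH1 and HB1 were separate between the groups. Without mock replicates 1, 2 and 3 and glucose replicate 1, q for ADH1 was 0.127, 0.102, 0.179 and 0.331. Without mock replicates 2 and 3 and glucose replicate 2, q for HB1 was 0.102, 0.179 and 0.154.

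DIN2, a beta-glucosidase gene induced by darkness and sugar depletion, had 10.6, 16.5 and 9.09 CPM in glucose libraries and 29.2, 29.6 and 31.4 CPM in mock libraries (log2 fold change −1.33, SE 0.26, edgeR q = 0.010, and 0.103 without glucose replicate 3). It was the 1 call among the 20 genes of sugar starvation tested, against 0.112% of all genes called lower. Of these 20 genes, 19 had a log2 fold change below 0, the median was −0.18, and 3 had all glucose libraries below all mock libraries, against 6.88% of all genes. ASN1 (DIN6), the asparagine synthetase gene repressed by sugar, had 191, 199.7 and 244 CPM with glucose and 258, 223 and 249.5 CPM with mock (−0.20, SE 0.18, q = 0.97). The groups overlapped for ASN1 and likewise for DIN10 (−0.20, q = 0.96), for SEN1 (DIN1, −0.18, q = 0.98) and for the transcription factor gene bZIP1 (−0.38, q = 0.81). TPS8, a trehalose phosphate synthase-like gene, was lower in every glucose library without passing the test (−0.36, q = 0.87).

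GPT2, which imports glucose 6-phosphate into plastids and is strongly induced by sugar, rose on few reads. It had 18, 6 and 8 counts in glucose libraries and 0, 2 and 0 counts in mock libraries, a ratio of 17.3 with a 95% counting interval of 4.42 to 149 (edgeR q = 0.071). Without mock replicates 1 and 3 and glucose replicate 1, q was 0.423, 0.334 and 0.424. BAM5, a beta-amylase gene with the same reputation, did not pass the filter and had 5, 4 and 4 counts with glucose and 0, 0 and 2 with mock. APL3, the sugar-induced large subunit of ADP-glucose pyrophosphorylase, had 2.58, 3.21 and 2.87 CPM with glucose and 2.08, 1.33 and 1.18 CPM with mock (0.90, SE 0.50, q = 0.90). GPT2 was the 1 call among the 9 genes of sugar induction tested (median −0.0334) and among the 18 of starch synthesis (median −0.0935), since it is in both lists.

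Of the 20 genes listed for flavonoid and anthocyanin synthesis, 8 did not pass the filter on low counts and were not tested, among them the anthocyanin genes LDOX, UGT79B1, UGT75C1, GSTF12, 5MAT, PAP2 and TT8. LDOX had 5, 3 and 1 counts with glucose and 7, 16 and 6 counts with mock. Among the 12 tested of flavonoid and anthocyanin synthesis there were 0 calls by edgeR, DESeq2 or limma (1 gene with an unadjusted p under 0.05), and the median was 0.0371. TT4, the chalcone synthase at the entry of the pathway, had 12.3, 10.2 and 13.6 CPM with glucose and 9.08, 15.7 and 13.8 CPM with mock (−0.09, SE 0.33, edgeR q = 0.99). PAP1 (AT1G56650), the MYB activator of anthocyanin synthesis, was at 0.445, 0.428 and 0.205 CPM with glucose and 0.670, 2.35 and 0.839 CPM with mock (−1.85, SE 0.93, q = 0.85). HXK1, the glucose sensor, had 6.94, 6.10 and 7.45 CPM with glucose and 6.55, 7.22 and 5.37 CPM with mock (0.10, q = 0.99), and STP1, a hexose uptake transporter, 1055, 1314 and 1097 CPM with glucose and 1287, 1147 and 1344 CPM with mock (−0.12, q = 0.99). The lists of sugar transport (15 tested), of sucrose cleavage, sucrose synthesis and hexose kinases (17), and of starch degradation (15) had 0 calls and medians of −0.0847, −0.000523 and −0.125.

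Photosynthetic genes were lower by a small amount without single calls. All 35 genes of the photosystems and antenna had a log2 fold change below 0, 19 of the 35 had all glucose libraries below all mock libraries, against 6.88% of all genes, and the median was −0.246. In fits of all 18 libraries none was called by edgeR, DESeq2 or limma, and 5 had an unadjusted p under 0.05. A fit of only the groups compared did call members of this list, as given below. The summed level of the 35 genes was 196500 to 211900 CPM in glucose libraries and 228100 to 243000 CPM in mock libraries. These genes share libraries and scaling and are not independent of each other. With scaling by library size alone, the median was −0.197, where the median over all genes moved to 0.0485.

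Within the antenna, LHCB3 had 5932, 5039 and 5509 CPM with glucose and 7864, 7779 and 6850 CPM with mock (−0.45, SE 0.14, edgeR q = 0.34). LHCB2.3 had 1044, 814 and 991 CPM with glucose and 1245, 1451 and 1298 CPM with mock (−0.49, SE 0.21, q = 0.69). CAB2, among the most abundant antenna genes, had means of 16291 ± 2416 CPM with glucose and 16504 ± 1082 CPM with mock (−0.02), with overlap. The antenna genes are close copies of each other, which leaves the division of reads among them uncertain. In the Calvin cycle list, 19 of 20 genes were below 0, against 9945 of the 19679 genes tested. All glucose libraries lay below all mock libraries for 10 of them, against 6.88% of all genes. Of the list, 0 were called by edgeR, DESeq2 or limma (3 with an unadjusted p under 0.05), and the median was −0.188. RBCS1A, a small subunit of Rubisco, had 6678, 5955 and 6637 CPM with glucose and 7193, 7322 and 7315 CPM with mock (−0.18, SE 0.13, q = 0.95).

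Markers of leaf mesophyll were lower beside these lists. All 6 marker genes had a log2 fold change below 0 (median −0.292, 0 called), and their summed level was 20460 to 23690 CPM with glucose and 26060 to 27520 CPM with mock. RBCS1A, LHCB2.1, LHCB3 and RCA are among these markers and also in the lists of photosynthesis, so the 2 results overlap. Root hair markers summed to 29.4 to 58.4 CPM with glucose and 36.5 to 44.4 CPM with mock, with 8 of 9 above 0 (median 0.252, 0 called). Endodermis markers summed to 244.5 to 480 CPM with glucose and 330.7 to 436 CPM with mock (9 tested, median −0.0243), and guard cell markers to 44.6 to 50.2 CPM with glucose and 41.1 to 48.2 CPM with mock (6 tested, median −0.0239). Of the 7 markers of root cap and root meristem, 2 passed the filter. Both leaf and root genes were thus present in all 6 libraries, as the label of whole seedlings states, and the part of tissue makeup in the results above was not tested.

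Genes of sulfur metabolism were mostly above 0 without single calls. In sulfate uptake and assimilation, 14 of 15 genes had a log2 fold change above 0, 6 had all glucose libraries above all mock libraries against 6.78% of all genes, and the median was 0.475. edgeR called 0 of them (6 with an unadjusted p under 0.05), DESeq2 3 and limma 0. LSU1, which rises under sulfur limitation, had 31.1, 25.7 and 22.7 CPM with glucose and 12.5, 11.9 and 15.2 CPM with mock (1.00, SE 0.27, edgeR q = 0.15). APR1, a key reductase of sulfate assimilation, had means of 32.2 ± 6.0 CPM with glucose and 18.2 ± 3.86 CPM with mock (0.82, q = 0.11). For both genes, the groups did not overlap.

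Indole glucosinolates are sulfur-containing defence compounds made from tryptophan. All 12 genes listed for them were above 0, with a median of 0.287. edgeR called 0 of them (4 with an unadjusted p under 0.05), DESeq2 1 and limma 0, and their summed level was 867 to 984.1 CPM with glucose and 670.2 to 703 CPM with mock. CYP81F4, which hydroxylates the indole ring, had 501, 412 and 456 CPM with glucose and 297, 323 and 300.3 CPM with mock (0.57, SE 0.16, edgeR q = 0.17). IGMT5, a methyltransferase that acts after CYP81F4 and is not in the list, rose, with 124, 102 and 127 CPM with glucose and 47.9, 78.4 and 72.9 CPM with mock (0.83, SE 0.19, q = 0.057). Its q was 0.550 and 0.162 without mock replicates 1 and 3 and 0.267 and 0.220 without glucose replicates 1 and 3. Among the 21 genes of aliphatic glucosinolates, made from methionine, 18 were above 0, 0 were called by edgeR, DESeq2 or limma (3 with an unadjusted p under 0.05), and the median was 0.251. Some sulfate, indole and aliphatic glucosinolate genes were called in a fit of only the groups compared, as given below.

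Of 22 genes of auxin synthesis, conjugation and early response, AIR3 and AIR1 rose and the median was −0.0306. AIR3, a subtilisin-like protease gene found as auxin-induced in root cultures, had 43.5, 33.5 and 35.5 CPM with glucose and 20.2, 16.2 and 24.9 CPM with mock (0.88, SE 0.18, edgeR q = 0.016). AIR1 had 86.9, 68.9 and 97.0 CPM with glucose and 49.7, 43.1 and 45.8 CPM with mock (0.87, SE 0.19, q = 0.030). The groups were separate for both. For AIR3, q was 0.109, 0.149 and 0.156 without mock replicates 1 and 2 and glucose replicate 1. For AIR1, it was 0.104, 0.161 and 0.170 without mock replicates 1, 2 and 3 and 0.131 and 0.184 without glucose replicates 1 and 3.

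VSP1, a jasmonate-induced vegetative storage protein gene, had 14.9, 11.45 and 12.0 CPM with glucose and 3.87, 7.85 and 6.21 CPM with mock (1.1, SE 0.27, edgeR q = 0.085), whereas VSP2 had means of 4.70 ± 3.57 CPM with glucose and 7.08 ± 2.57 CPM with mock, with overlap (−0.60, q = 0.95). VSP1 was the 1 call among the 6 genes tested of the 10 listed for jasmonate and salicylate defence, whose median was 0.371. It was called only without mock replicate 2, with q of 0.137 to 0.624 in the other 5 fits. Of 24 genes of mitosis and DNA replication, 18 were above 0, 0 were called by edgeR, DESeq2 or limma (2 with an unadjusted p under 0.05), and the median was 0.20. The lists of the circadian clock (12 tested) and of phosphate starvation (11 tested) also had 0 calls, with medians of −0.0969 and 0.0604.

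**Figure D5:**
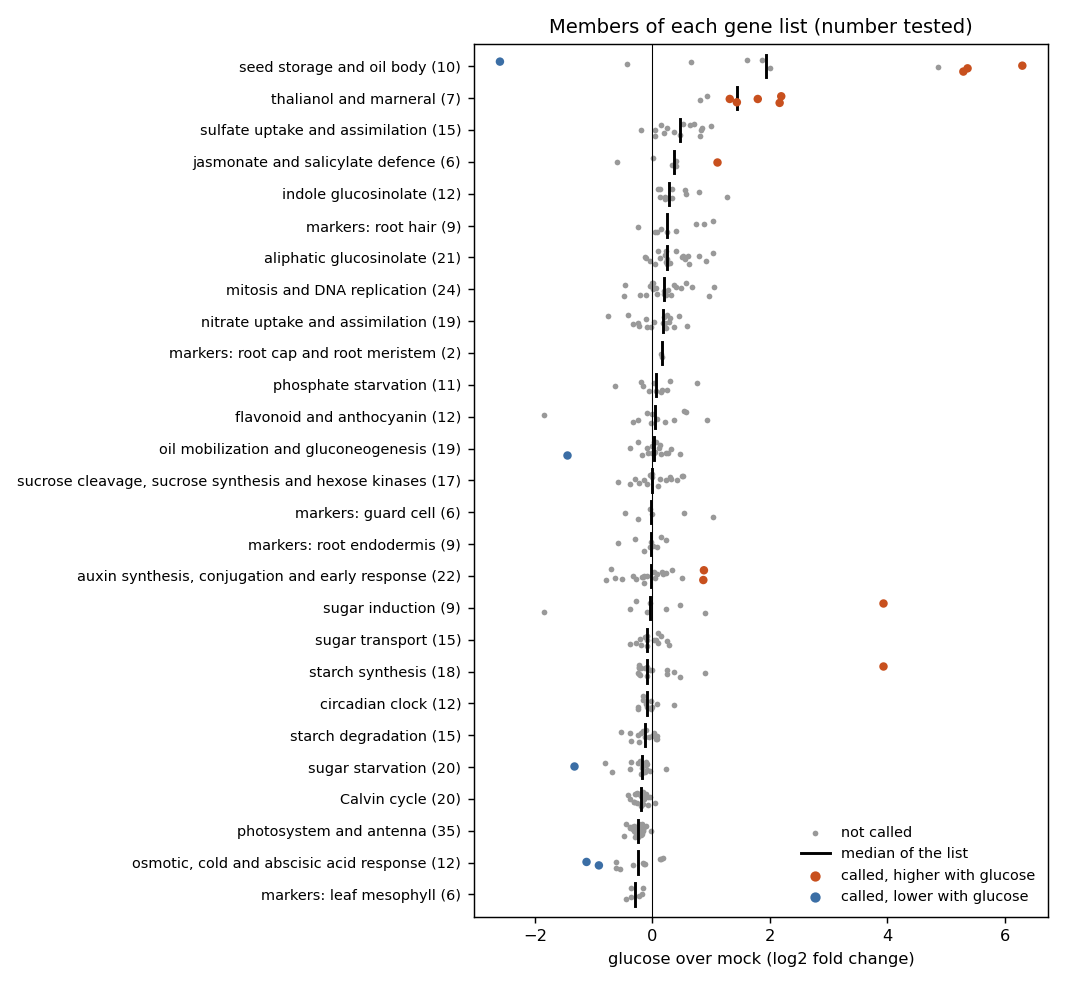
Log2 fold change of glucose over mock (x axis) for the members of each of the 27 gene lists (y axis, number of genes tested in parentheses), with called members in orange (higher) or blue (lower), other members in grey and the median as a black bar. The medians of the seed storage list (1.94) and of the thalianol and marneral list (1.44) stand apart from the others, and all 35 photosystem and antenna genes lie left of 0. Seed storage members low in mock libraries could pass the filter on low counts through the libraries with sugar.

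Called genes lay close together in 7 places. With neighbours defined as called genes at most 2 tested genes apart in the reference order, 16 of the 109 called genes were in such runs. The longest was the thalianol run of AT5G47980, CYP705A5, CYP708A2 and THAS1 on chromosome 5. In 6 of the 7 runs all genes moved in the same direction, but 87 of the 109 called genes rose, so a shared direction is common among them. Whether the runs or their shared direction exceed what gene order alone would give was not tested. The exception was BHLH100 and M17 on chromosome 2, where BHLH100 rose and M17 fell.

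The glucose response was next set beside that to sucrose in Col-0, which shares the mock libraries. Between glucose and sucrose libraries 0 genes were called by edgeR (percent called 0), the lowest q was 0.198 and 1282 genes had an unadjusted p under 0.05, while DESeq2 called 13 and limma 0. Leaving out sucrose replicate 1 gave 28 calls and leaving out glucose replicate 1 gave 3. The lowest q belonged to COR15B, a cold-induced chloroplast protein gene, with means of 15.8 ± 4.95 CPM with glucose and 33.2 ± 2.79 CPM with sucrose (log2 fold change of glucose over sucrose −1.07). THAS1 had means of 117 ± 9.59 CPM with glucose and 85.5 ± 41.5 CPM with sucrose, RAB18 (AT5G66400) of 176 ± 25.2 CPM with glucose and 114 ± 8.01 CPM with sucrose, and CRU3 of 7.0 ± 5.06 CPM with glucose and 22.3 ± 8.19 CPM with sucrose. A gene that misses the threshold is not thereby shown to respond alike to both sugars.

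The glucose response of atm1-1 was measured in libraries that share none with Col-0. Of the 87 genes that rose in Col-0, all 87 were higher with glucose in atm1-1 too and 76 were called there, which is 87.4% of the Col-0 list and 17.6% of the 433 genes called higher in atm1-1 (2.2% of all genes tested). Of the 22 genes that fell in Col-0, 21 were lower in atm1-1 and 17 were called, which is 77.3% of the Col-0 list and 12% of the 142 called lower in atm1-1 (0.722% of genes tested). The exception was MAKR6, annotated as a membrane-associated kinase regulator, which had a log2 fold change of −0.94 in Col-0 and 0.34 in atm1-1. Its q in Col-0 was 0.037, and 0.206 and 0.223 without mock replicates 1 and 2 and 0.158 and 0.213 without glucose replicates 2 and 3. The median over the 87 genes was 1.35 in Col-0 and 1.51 in atm1-1, and over the 22 genes −1.54 in Col-0 and −1.59 in atm1-1.

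A test of the difference between the 2 responses called 0 genes by edgeR (percent called 0, lowest q = 0.843). Before adjustment 750 genes had p under 0.05, and there were 8 calls by DESeq2 and 0 by limma. Among the genes called in Col-0, CYP705A5 and MAKR6 were nearest, both at q = 0.84. CYP705A5 rose by 1.8 in Col-0 and by 2.93 in atm1-1, a difference of −1.14 (SE 0.26). The 7 triterpene genes had a median of 1.44 in Col-0 and 2.93 in atm1-1, and all 7 were called in atm1-1. The photosystem and antenna genes had a median of −0.246 in Col-0 and −0.225 in atm1-1, where 31 of 35 were below 0 and 1 was called. The list of the osmotic, cold and abscisic acid response had a median of −0.249 in Col-0 and 0.31 in atm1-1, and the sugar starvation list one of −0.18 in Col-0 and −0.474 in atm1-1, with 1 and 7 genes called lower. These list medians were not compared by a test.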

How the data were processed

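The authors sequenced QuantSeq 3′ libraries of total RNA as 50 bp single-end reads, mapped them to the TAIR10 genome, and the deposited table holds unnormalized counts of reads on each gene in 18 libraries. The paper and the labels name different Illumina sequencers. The submitters' processing notes name STAR, HTSeq and edgeR without versions. The annotation release, strand setting and treatment of multiply mapped reads are not given in the sources used here. A second deposited table of scaled values was not used.

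Of 32832 genes in the table, 32547 matched the reference annotation (TAIR10.1, used only for names, products, gene order and overlaps), and the other 285 had 0 counts. In edgeR 4.0.16 (R 4.3.3), low counts were removed by filterByExpr, libraries were scaled by TMM, and glmQLFit fitted 1 model with a mean for each of the 6 groups to all 18 libraries. Contrasts were Col-0 glucose against mock, Col-0 glucose against sucrose, atm1-1 glucose against mock, and the difference between the Col-0 and atm1-1 responses. Benjamini-Hochberg adjustment ran over all genes tested in a contrast, with the study's threshold of 0.1. The study's own tool, PoissonSeq, was not run. SE is the log2 fold change divided by the square root of F. Intervals of count ratios are exact and cover 95% of counting error, and no molecular identifiers are described. Replicates of a group differed by more than sampling noise in all 6 pairs (chi-square over degrees of freedom 6.69 to 14.6), and their log2 CPM correlated with r of 0.963 to 0.971. The median SD over mean was 15.9% with glucose and 15.2% with mock.

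The genes named are the 15 largest rises and 10 largest falls among called genes whose mean log2 CPM was 1 or more and whose groups did not overlap, all called members of the lists, a set of fixed sugar response genes, the most abundant and most changed list members, the 5 most abundant called genes and the 2 genes on each side of the threshold, and genes called in all 6 fits without 1 library. Other called genes were named after their values were seen. The 27 lists and the members were chosen with earlier results of these data known. Alternatives tried were scaling by RLE or by library size, omitting the filter, requiring 10 counts in every library, DESeq2 1.42.0, limma 3.58.1 (log2 CPM, prior count 2), fitting the compared groups alone, a threshold of 0.05, a replicate block, and leaving out each library.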

Additional observations from a re-analysis of the deposited data

Results flagged for a closer look

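IAA2, an early auxin response gene, was singled out because its glucose response pointed in opposite directions in the 2 genotypes, with no overlap between groups in either. In Col-0 it had 136, 134 and 122 CPM with glucose and 157, 185 and 149 CPM with mock (log2 fold change −0.33), and in atm1-1 its means were 166 CPM with glucose and 144 CPM with mock (0.20). The difference of the Col-0 and atm1-1 responses was −0.53 (SE 0.24, unadjusted p = 0.0368 by edgeR's quasi-likelihood test, q = 1 over 19679 genes), so it did not pass the threshold. Neither response was called by itself.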

How the results depend on the processing

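The 109 calls (87 higher, 22 lower) became 245 (196 and 49) with no filter on low counts, 194 (153 and 41) with DESeq2 and 220 (170 and 50) in a fit of only the groups compared. Leaving out 1 library gave 52 to 95 calls (38 to 82 higher and 11 to 18 lower). Without mock replicates 1, 2 and 3 there were 52, 70 and 57, and without glucose replicate 1 there were 64. RLE scaling, library size scaling, at least 10 counts in every library, limma and a threshold of 0.05 gave 106, 127, 86, 103 and 81 calls. All 109 genes were also called by DESeq2 and without the filter. Library size scaling moved the share of calls that were higher to 84.3%, against 79.8% with TMM, and the median of all genes by less than 0.1.

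For glucose against sucrose, the 0 calls became 125 with no filter and 13 with DESeq2, and 0 to 28 without 1 library (28 without sucrose replicate 1, 3 without glucose replicate 1). For the difference from atm1-1, they became 14 with no filter and 8 with DESeq2, and stayed 0 in the other alternatives. The causes of these changes were not tested.

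The replicate numbers did not pair the samples: same-numbered glucose and mock libraries deviated from their group means with correlations of −0.0587, −0.0744 and −0.00613. With the replicate number as a block there were 101 calls (80 and 21), 98 of them shared, and 0 in the other 2 contrasts. Direction was followed for the called genes among the leading rises and falls, the list members, the most abundant and those at the threshold. None of these changed direction under any alternative in which it was tested. For other called genes named in the text, such as EXT4 and MAKR6, direction under the alternatives was not examined. Medians of lists close to 0, such as that of phosphate starvation, changed sign under some. Photosystem and antenna, aliphatic glucosinolate, indole glucosinolate and sulfate genes gave 2, 3, 2 and 3 calls in the fit of only the groups compared. At 9450790 to 14120130 counts a library, genes under 1 CPM rest on few reads.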

Other observations

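Several genes not described above were called in each of the 6 fits that left out 1 library, with AT4G11210 the exception among those that follow. AT4G11190, a dirigent-like protein gene of the family that guides the coupling of lignan precursors, had 62.2, 38.1 and 53.6 CPM with glucose and 15.0, 17.7 and 17.5 CPM with mock (log2 fold change 1.62, SE 0.26, edgeR q = 0.0012). AT4G11210, nearby on the chromosome and of the same family, rose by 1.18 (q = 0.069, and 0.527, 0.272, 0.405 and 0.229 without mock replicates 1 and 2 and glucose replicates 1 and 3). AT2G16005, annotated with an MD-2-related lipid recognition domain, had 133, 143 and 158 CPM with glucose and 62.2, 72.6 and 66.1 CPM with mock (1.11, SE 0.19, q = 0.0028). AT2G41380, a methyltransferase family gene, had 91.3, 53.0 and 67.9 CPM with glucose and 34.6, 29.5 and 34.6 CPM with mock (1.1, SE 0.20, q = 0.0052). The groups were separate for all of these genes. AT4G12170, a thioredoxin family gene, rose by 3.66, the P450 gene AT5G36130 by 1.71, SDR4, a short-chain dehydrogenase gene, by 1.17 and AT3G57010, a phosphotriesterase family gene, by 1.17, with q of 0.00056, 0.0012, 0.0042 and 0.0093.

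Among regulators, RR5, a response regulator that cytokinin induces, had 13.6, 15.4 and 14.9 CPM with glucose and 8.19, 8.32 and 9.15 CPM with mock (0.78, SE 0.19, edgeR q = 0.073), and WRKY51, a transcription factor gene, had 2.05, 2.25 and 0.957 CPM with glucose and 4.69, 6.04 and 3.86 CPM with mock (−1.5, SE 0.37, q = 0.079). Neither gene overlapped between the groups, and neither was called in any of the 6 fits that left out 1 library, with q of 0.152 to 0.380 for RR5 and 0.102 to 0.459 for WRKY51. GAT1_2.1, a glutamine amidotransferase-like gene, had 13.9, 19.4 and 23.0 CPM with glucose and 40.0, 35.5 and 30.7 CPM with mock (−0.91, SE 0.20, q = 0.034, and 0.250, 0.113, 0.302 and 0.102 without mock replicates 1 and 2 and glucose replicates 1 and 2). RR5, WRKY51, GAT1_2.1 and AT4G11210 were named after their values had been seen. GAT1_2.1 and AT4G12170 overlap annotated genes on the other strand.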
